A study of Saccharomyces cerevisiae with 6 samples.

Results

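The proteins of the large subunit of the cytosolic ribosome were examined in budding yeast, Saccharomyces cerevisiae. Members were the genes with a symbol of RPL, a number and an optional A or B, together with RPP0, RPP1A, RPP1B, RPP2A and RPP2B. The gene table of the R64 assembly holds 81 such genes, of which 75 had a probe set on the array, out of 5449 genes with a probe set in all. All 75 passed the filter on dim signals that left 4907 genes for testing.

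The large subunit carries the centre where peptide bonds form, the tunnel through which the new chain leaves, and a flexible stalk that recruits the factors driving elongation. In log-phase yeast the genes for these proteins are among the most strongly transcribed of the genome. They are controlled together by nutrient signalling through TOR and by the activators Rap1, Fhl1 and Ifh1. Most of them survive as A and B copies from an ancient duplication of the whole genome, and in most pairs the copies encode identical or nearly identical proteins.

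Transcripts were measured with Affymetrix Yeast Genome 2.0 arrays in 3 haploid strains, with 2 arrays per strain from independent experiments. The wild type was BY4741, an a-type haploid laboratory strain without functional copies of the marker genes HIS3, LEU2, MET17 and URA3, and both mutants were made in this background. The first mutant lacked EOS1, whose product sits in the membrane of the endoplasmic reticulum, and the second lacked IZH2, whose membrane protein is linked to zinc metabolism. They are called the eos1 and the izh2 mutant here, and the eos1 deletion and the izh2 deletion on the plots. The series title names zinc homeostasis as the subject. All 3 strains were grown in the rich medium YPD, shaken at 150 rpm at 30 degrees Celsius, and collected in log phase at an optical density of 1.0. Each strain is given by a genotype alone, with no statement of how many clones it stands for.

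The labels were checked first. EOS1 had signals of 694 and 692 in BY4741 and 0.42 and 2.70 in its deletion, and IZH2 had 3543 and 2390 in BY4741 and 3.46 and 1.12 in its deletion. URA3, LEU2 and MET17 lay below the filter, whereas the HIS3 probe set kept a signal between 1269 and 2422 on the 6 arrays. All 6 genes of the a-cell list were tested, and their summed signal lay between 14242 and 17743 on the wild-type and izh2 mutant arrays but at 6702 and 5466 on the eos1 mutant arrays. The 4 alpha-cell genes summed to 310 to 356 on the wild-type and izh2 mutant arrays and to 629 and 541 in the eos1 mutant. SAG1 alone among them passed the filter. It read 268 and 254 in BY4741, 450 and 386 in the eos1 mutant, and 253 and 204 in the izh2 mutant. STE3, below the filter, read 47 and 45, then 144 and 121, then 38 and 77 in the same order. MF(ALPHA)1 lay between 0.91 and 13.3 and MF(ALPHA)2 between 18.3 and 34.4 on the 6 arrays. The median signal of all tested genes was 644 and 589 in BY4741, 792 and 660 in the eos1 mutant and 581 and 554 in the izh2 mutant. The 346 tested genes of chromosome II that are not members had a median log2 fold change of 1.04 between the eos1 mutant and the wild type, and 207 of them were called higher. The part of the mating-type genes, of the array medians and of chromosome II in the values below was not tested beyond the alternatives given.

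The members lay at the bright end of the array. On the log2 scale their mean signal over the 6 arrays ran from 8.87 to 13.67 with a median of 13.25. Of the 75 members, 59 lay at 13 or above, which is 36.6% of the 161 tested genes there. Another 13 lay between 12 and 13. Only RPL22B, RPL15B and RPL41A lay below 12. The highest signal of any probe set on any array was 15598. Median member signals were 9986 and 9906 in BY4741, 10019 and 9349 in the eos1 mutant and 9050 and 9930 in the izh2 mutant, so the 3 strains overlapped. In RNA from whole cultures, fewer cells carrying a transcript and less of it per cell cannot be told apart.

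In the eos1 mutant most large-subunit genes had signals close to those of the wild type. Under limma with Benjamini-Hochberg adjustment over the 4907 tested genes, 0 of 75 members were called in the eos1 mutant against the wild type at an adjusted p of 0.05, whereas 7.11% of all tested genes were called, 6.4% higher and 0.713% lower. At an unadjusted p of 0.05 the count was 3 members (RPL19A, RPL19B and RPL4B), against 21.8% of all tested genes. With median-centred arrays that count was 23, all lower, against 22.1% of all tested genes and 11.2% lower. The median log2 fold change of the members was -0.05, with quartiles of -0.10 and 0.05 and extremes of -0.48 and 0.64. The median of all tested genes was 0.21, and 71 of the 75 members lay below it. The SD over the members was 0.155, against 0.483 over all tested genes. Once each array was centred on its median, the members' median was -0.28, and RPL4B was then called lower and 0 members higher, against 2.24% of all tested genes called lower and 4.22% called higher.

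The median log2 fold change varied with signal. Away from chromosome II and at a mean log2 signal of 13 or above, the 54 members had a median log2 fold change of -0.06, and the 93 other genes in that range also had -0.06. Other genes here are all that are not members, small-subunit ribosomal protein genes included. Off chromosome II, 48 small-subunit genes were tested over all signal classes, with a median of -0.06. Bright genes without them were not compared. Between 12 and 13 the medians were -0.07 for 12 members and -0.04 for 231 other genes. In dimmer classes of other genes away from chromosome II the median was 0.09 between 10 and 12, 0.21 between 8 and 10 and 0.38 below 8. The median of other genes was thus higher in each dimmer class. Too few members lay in those classes to compare: RPL15B (0.17) and RPL41A (0.64) lay between 8 and 10, and RPL22B (-0.22) between 10 and 12.

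**Figure D1:**
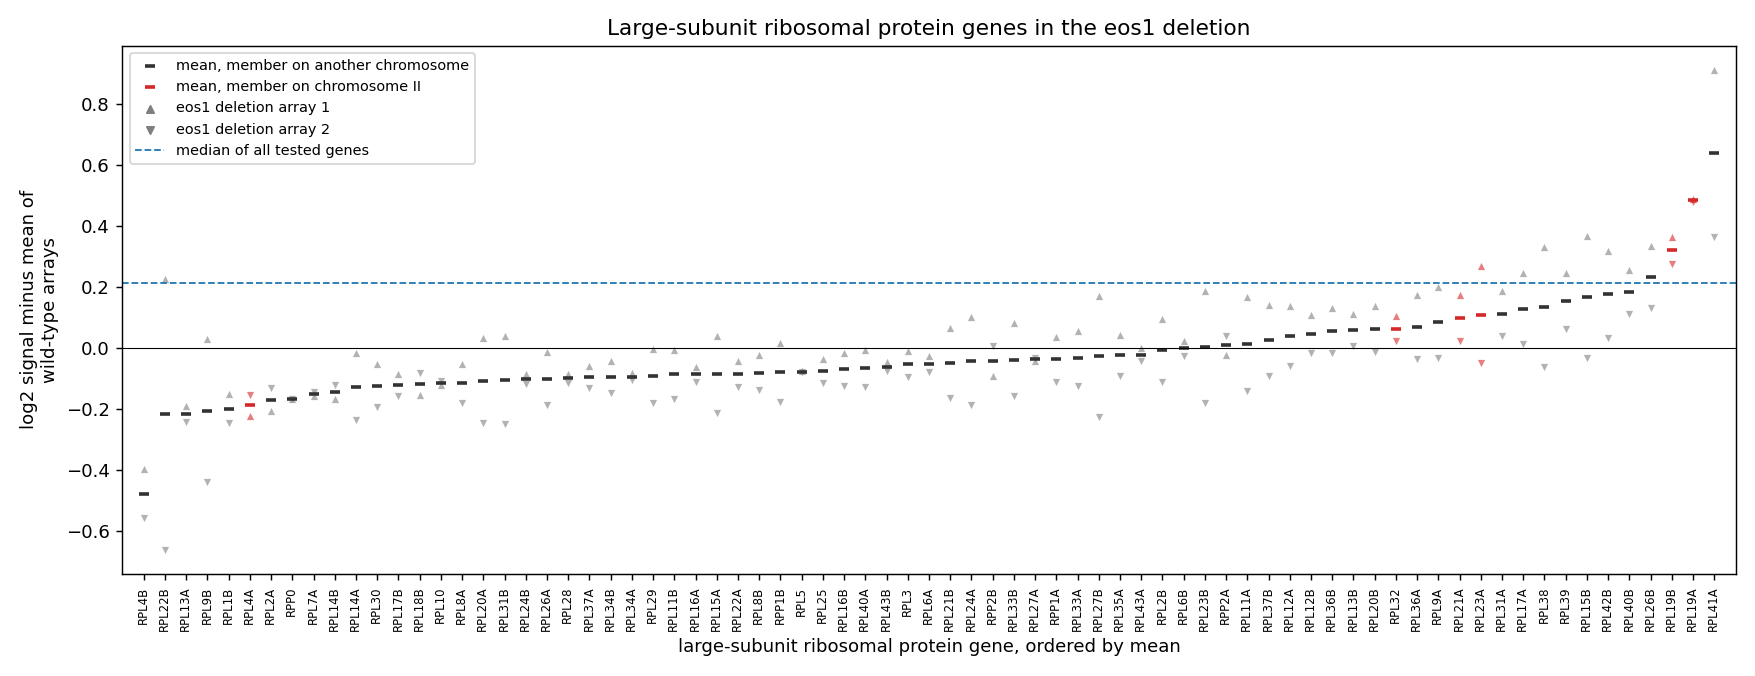
Log2 signal on each eos1 mutant array minus the mean of the wild-type arrays (vertical axis) for the 75 large-subunit genes, ordered by the mean of both arrays; triangles are single arrays, horizontal marks their mean, red the 6 genes of chromosome II, and the dashed line the median of all tested genes. The marks run from -0.48 for RPL4B to 0.64 for RPL41A, and 71 of 75 lie below the dashed line.

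Single arrays were set in order as well. Both eos1 mutant signals lay above both wild-type signals for 5 members (RPL17A, RPL19A, RPL19B, RPL26B and RPL40B), against 41.9% of all tested genes, and below both for 22 members, against 8.84% of all. The 2 eos1 mutant arrays themselves differed, with median member differences from the wild-type mean of 0.02 and -0.11 on the log2 scale. With 2 arrays against 2, an exact two-sided permutation test of a single value cannot give a p below 0.333.

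RPL19A and RPL19B, the copies for a protein that forms part of a bridge to the small subunit, both lie on chromosome II and had the highest values after RPL41A. RPL19A (YBR084C-A) had signals of 7327 and 6406 in BY4741, 9620 and 9556 in the eos1 mutant, and 6654 and 6210 in the izh2 mutant. Both eos1 mutant arrays were above the other 4. The log2 fold change against the wild type was 0.48 ± 0.13 (SE; 95% interval 0.19 to 0.78), a ratio of 1.40, with a limma adjusted p of 0.053. RPL19B (YBL027W) had signals of 9038 and 8891 in BY4741, 11550 and 10867 in the eos1 mutant, and 8377 and 8627 in the izh2 mutant. Again the eos1 mutant arrays stood above all others without overlap. Its log2 fold change against the wild type was 0.32 ± 0.11 (SE; 95% interval 0.08 to 0.57), with a limma adjusted p of 0.12.

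Between the 2 mutants, 3 of 75 members were called, all higher in the eos1 mutant, against 12.6% of all tested genes called in either direction, 11.9% higher and 0.713% lower. RPL19A rose by 0.58 ± 0.13 (log2, SE; limma adjusted p = 0.016), a ratio of 1.49, and RPL19B by 0.40 ± 0.11 (limma adjusted p = 0.040), a ratio of 1.32. RPL41A, whose product is among the smallest proteins of the cell, was the third. RPL41A was read with a shared probe set, and RPL41B had no probe set named for it. The RPL41A signals were 719 and 326 in BY4741, 911 and 624 in the eos1 mutant, and 217 and 369 in the izh2 mutant. The mutants did not overlap each other, but the wild-type arrays spanned a wide range and overlapped both. RPL41A rose by 1.41 ± 0.38 (log2, SE; limma adjusted p = 0.034) from the izh2 to the eos1 mutant, while its log2 fold changes against the wild type were 0.64 in the eos1 mutant (adjusted p = 0.37) and -0.78 in the izh2 mutant (adjusted p = 0.998), both by limma. After median centring 0 members were called between the mutants, against 10.5% of all tested genes (6.62% higher and 3.91% lower), and 32 members had an unadjusted p under 0.05, 31 of them lower in the eos1 mutant, against 25.9% of all tested genes and 13.6% lower. The RPL41A call also ended when chromosome II genes, and with them RPL19A and RPL19B, were left out of the fit (limma adjusted p = 0.055). All 3 calls ended when the first eos1 mutant array or either izh2 mutant array was left out. Without the first eos1 mutant array, the first izh2 mutant array and the second izh2 mutant array, the limma adjusted p was 0.083, 0.058 and 0.13 for RPL19A, 0.23, 0.16 and 0.15 for RPL19B, and 0.15, 0.24 and 0.075 for RPL41A. Without the second eos1 mutant array RPL19B alone lost its call (adjusted p = 0.063).

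**Figure D2:**
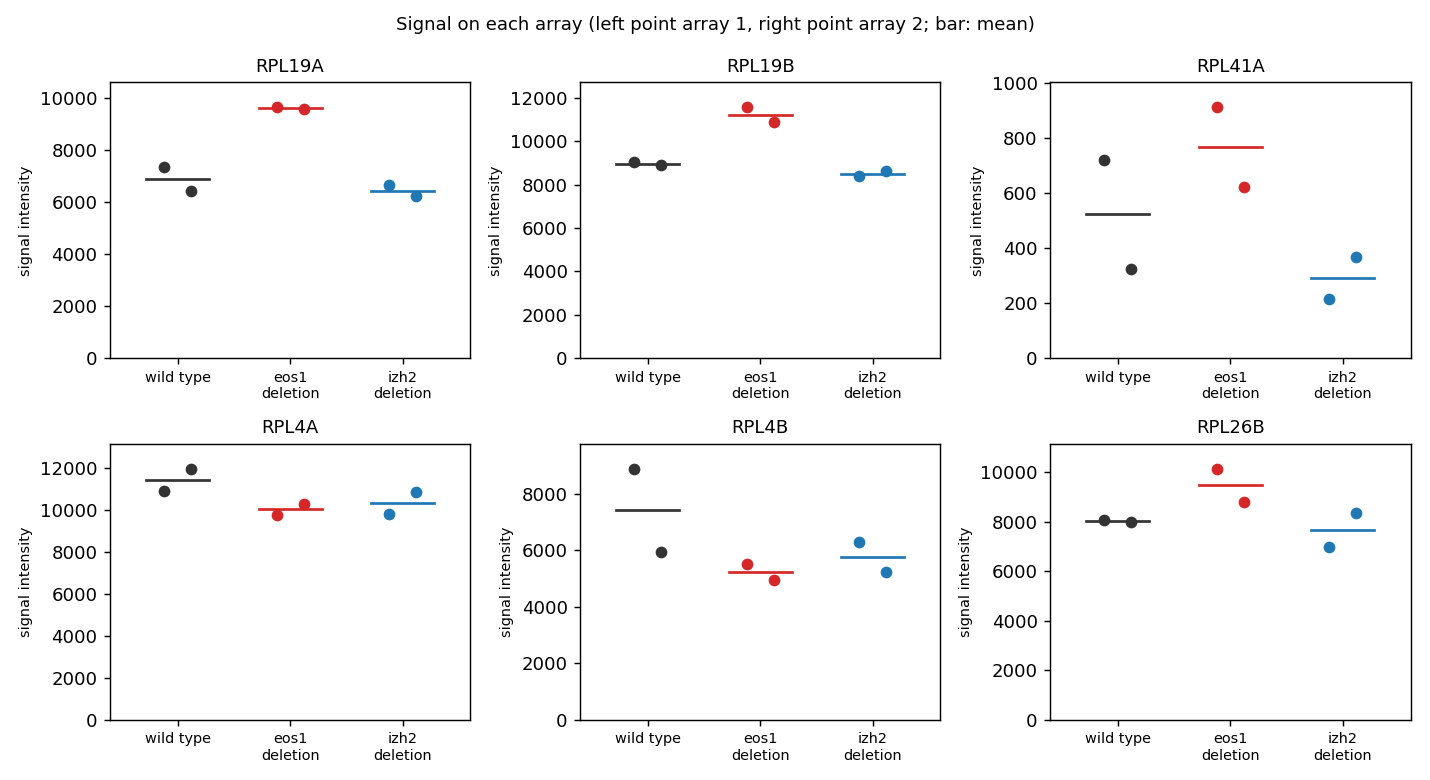
Deposited signal (linear scale, vertical axis) on each of the 6 arrays for RPL19A, RPL19B, RPL41A, RPL4A, RPL4B and RPL26B; points are arrays and bars the mean of 2. The eos1 mutant arrays of RPL19A (9620 and 9556) and of RPL19B (11550 and 10867) lie above all other arrays, and the wild-type arrays of RPL41A (719 and 326) and RPL4B (8876 and 5932) lie far apart.

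RPL4B had the lowest member value in the eos1 mutant. RPL4A and RPL4B encode a protein with a long loop that reaches into the wall of the exit tunnel. RPL4B (YDR012W) had signals of 8876 and 5932 in BY4741, 5517 and 4933 in the eos1 mutant, and 6281 and 5238 in the izh2 mutant. Both eos1 mutant arrays lay below both wild-type arrays, and the wild-type arrays differed more from each other than the lower of them did from the mutant. The log2 fold change was -0.48 ± 0.20 (SE; 95% interval -0.92 to -0.04; limma adjusted p = 0.19). After centring it was -0.71 with an adjusted p of 0.046, and without the second wild-type array, on the uncentred scale, it was -0.77 with an adjusted p of 0.027. Without the first wild-type array it was -0.19 with an adjusted p of 0.72, so the size of the RPL4B value rested on which wild-type array was kept. RPL4A, on chromosome II, had signals of 10882 and 11962 in BY4741 and 9780 and 10269 in the eos1 mutant, with no overlap, and a log2 fold change of -0.19 (95% interval -0.44 to 0.06; limma adjusted p = 0.37). RPL4A was read with a shared probe set, so the part of RPL4B in its signal cannot be told apart.

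The members next in order did not pass the test. RPL26B, whose protein sits near the mouth of the exit tunnel, had signals of 8084 and 7999 in BY4741, 10147 and 8822 in the eos1 mutant, and 6978 and 8369 in the izh2 mutant. Its eos1 mutant arrays lay above all the others, and its log2 fold change against the wild type was 0.23 (limma adjusted p = 0.36). At the low end RPL22B, RPL13A and RPL9B had log2 fold changes of -0.22, -0.22 and -0.20. The RPL22B signals were 4006 and 2164 in BY4741, 3448 and 1863 in the eos1 mutant, and 2315 and 2679 in the izh2 mutant, so that the strains overlapped. For RPL13A the wild-type signals were 8821 and 8788, the eos1 mutant signals 7718 and 7449, and the izh2 mutant signals 8496 and 7649, with both mutants below the wild type. RPL9B, for a protein near the base of the stalk, read 6397 and 7008, then 6842 and 4937, then 5582 and 5840 in the same order of strains, and its wild-type and eos1 mutant arrays overlapped.

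Of the members 6 lie on chromosome II: RPL32, RPL4A, RPL19A, RPL19B, RPL21A and RPL23A. Their median log2 fold change in the eos1 mutant was 0.11, against -0.06 for the other 69 members, a difference of 0.17. On single arrays this difference from the other members was 0.22 and 0.14 in the eos1 mutant and 0.01 and -0.02 in the izh2 mutant. The corresponding difference for genes that are not members was 0.84 on both eos1 mutant arrays and -0.01 and -0.02 on the izh2 mutant arrays. Both groups of chromosome II genes were thus above their counterparts on each eos1 mutant array, the members by less. Leaving out the first wild-type array gave a member difference of 0.24, and over all leave-one-out fits it ran from 0.14 to 0.24. No test over the 6 members was made, since they were chosen with results of these data known.

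Brightness differed between the members and the rest of the chromosome. Among the other chromosome II genes the median log2 fold change was 1.39 in the 34 genes below a mean log2 signal of 8, 1.12 in the 160 between 8 and 10, 0.97 in the 119 between 10 and 12, 0.46 in the 24 between 12 and 13, and 0.00 in the 9 at 13 or above. Those 9 include the 4 small-subunit ribosomal protein genes of chromosome II, with values from -0.07 to 0.07. The rest of the 9 ran from -0.16 to 0.43. The brightest class held 0 called genes, and the class between 12 and 13 held 4. RPL19A, the only chromosome II member between 12 and 13, had 0.48, close to the 0.46 of its class. The 5 members at 13 or above had a median of 0.10. The difference between members and other chromosome II genes was therefore seen together with a difference in signal, and what a bright probe set would show of a given change in transcript was not tested.

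**Figure D3:**
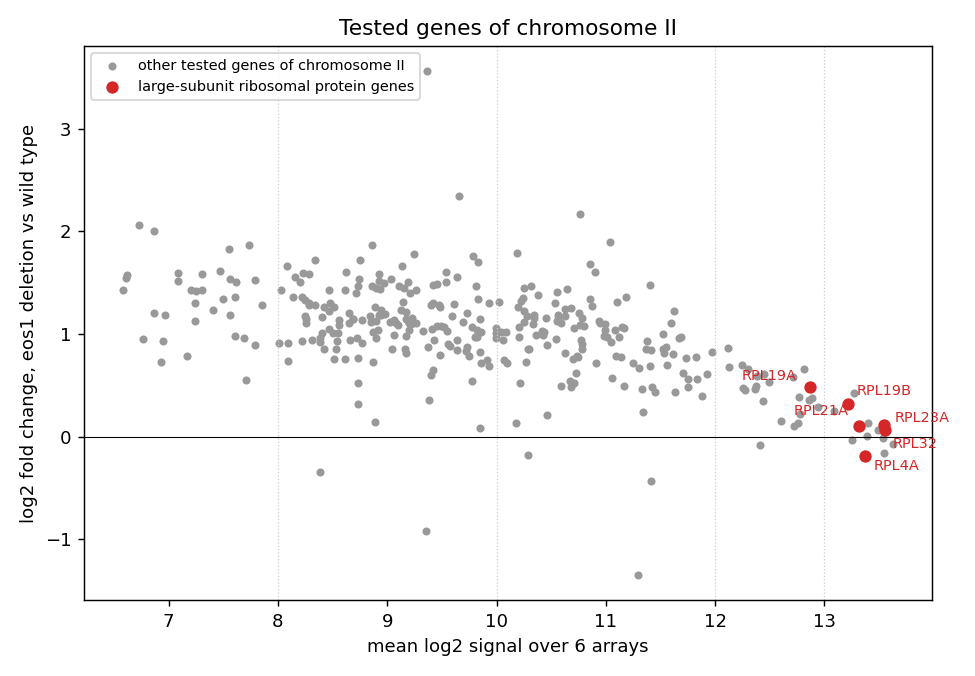
Log2 fold change between the eos1 mutant and the wild type (vertical axis) against the mean log2 signal over 6 arrays (horizontal axis) for the 352 tested genes of chromosome II; red points are the 6 large-subunit genes, grey points the other 346, and dotted lines the class limits. Grey points have a median of 1.12 between 8 and 10 and of 0.00 at 13 or above, where 5 of the 6 red points lie. The grey points at 13 or above include the 4 small-subunit ribosomal protein genes of the chromosome.

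The remaining chromosome II members overlapped the wild type. RPL32 (YBL092W) had signals of 11905 and 12424 in BY4741, 13083 and 12368 in the eos1 mutant, and 10667 and 12087 in the izh2 mutant. RPL23A (YBL087C), for a protein at the face between the subunits, had 13202 and 10697, then 14314 and 11497, then 11091 and 11454 in the same order. RPL21A (YBR191W) had 10038 and 10419, then 11544 and 10409, then 8781 and 10155. For all 3 the eos1 mutant arrays lay above the izh2 mutant arrays but not above both wild-type arrays. Their log2 fold changes against the wild type were 0.06, 0.11 and 0.10 (limma adjusted p 0.76, 0.68 and 0.67) on the deposited scale and -0.17, -0.12 and -0.13 after centring, so their direction depended on the scaling. RPL19A and RPL19B kept a positive value after centring, at 0.25 and 0.09, with limma adjusted p of 0.33 and 0.75.

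The stalk proteins gave 0 calls. RPP0, the anchor of the stalk on the ribosomal RNA, had signals of 9831 and 12342 in BY4741, 9817 and 9826 in the eos1 mutant, and 9366 and 10834 in the izh2 mutant. Both eos1 mutant arrays lay just under the lower wild-type array. Its log2 fold change in the eos1 mutant was -0.17 (limma adjusted p = 0.51). RPP1A, RPP1B, RPP2A and RPP2B, the acidic proteins that bind RPP0 in pairs and contact the elongation factors, had -0.04, -0.08, 0.01 and -0.04. Their adjusted p values were between 0.74 and 0.97. All 5 stalk genes lay below the median of all tested genes in this comparison. In the izh2 mutant their median log2 fold change was -0.10.

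The single-copy members gave 0 calls in any comparison. Besides RPP0 these were RPL3, RPL5, RPL10, RPL25, RPL28, RPL29, RPL30, RPL32, RPL38 and RPL39. RPL3 lies beside the peptidyl transferase centre, RPL5 carries the smallest ribosomal RNA into the subunit, RPL10 joins late in maturation, RPL25 and RPL39 lie at the exit tunnel, and RPL30 binds its own transcript to hold back its splicing. In the eos1 mutant the 10 genes other than RPP0 had a median log2 fold change of -0.08, from -0.12 for RPL30 to 0.15 for RPL39, with limma adjusted p from 0.54 to 0.81. RPL39 read 7093 and 5974 in BY4741, 7717 and 6795 in the eos1 mutant, and 5692 and 6186 in the izh2 mutant, with the eos1 mutant above the izh2 mutant but overlapping the wild type. RPL30 read 12954 and 13881, then 12930 and 11725, then 11699 and 13010, with the eos1 mutant just below the wild type. In the izh2 mutant all 10 had a negative value and a median of -0.10.

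The A and B copies were compared within each array. The log2 ratio of the A to the B signal was formed on every array, and its change between strains was tested with limma for the 53 gene pairs named A and B among the tested genes, of which 29 were member pairs. The ratio itself mixes probe sets of unlike response, so its change alone was read. Of the 29 member pairs 0 were called in any comparison. In some of these pairs a copy was read with a shared probe set, whose signal may hold that of other transcripts. Among all 53 pairs 3.77% were called between the eos1 mutant and the wild type, 0% between the izh2 mutant and the wild type, and 3.77% between the mutants. At an unadjusted p of 0.05 the member counts were 2, 1 and 3 of 29 in the same order, and those over all pairs were 6, 2 and 6 of 53. The median size of the change over member pairs was 0.11, 0.08 and 0.11 on the log2 scale, and the median SE was 0.11.

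In the eos1 mutant the largest difference among the member pairs was in RPL26. The log2 ratio of RPL26A to RPL26B was 0.38 and 0.36 in BY4741, 0.02 and 0.05 in the eos1 mutant, and 0.44 and 0.21 in the izh2 mutant. The eos1 mutant stood below the other strains, with a change of -0.33 ± 0.10 (SE; 95% interval -0.58 to -0.09; limma adjusted p = 0.24). For RPL13 the ratio was -0.24 and -0.29 in BY4741, -0.57 and -0.51 in the eos1 mutant, and -0.27 and -0.41 in the izh2 mutant. Here too the eos1 mutant was lowest, with a change of -0.27 ± 0.09 (95% interval -0.49 to -0.06; limma adjusted p = 0.24). RPL9 and RPL4 each had a change of 0.29, with 95% intervals of -0.06 to 0.64 and -0.35 to 0.93 that both include 0.

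Chromosome II splits 3 pairs, with the A copy on it and the B copy elsewhere. For RPL21 the ratio was 0.01 and 0.02 in BY4741, 0.12 and 0.20 in the eos1 mutant, and -0.05 and 0.04 in the izh2 mutant. For RPL23 it was -0.02 and -0.05, then 0.05 and 0.10, then -0.09 and -0.17 in the same order. In both pairs the A copy stood relatively higher on the eos1 mutant arrays than on all other arrays. RPL21A was read with a shared probe set, so the part of other transcripts in the RPL21 ratio cannot be told apart. The changes against the wild type were 0.15 (95% interval -0.06 to 0.35; limma adjusted p = 0.42) for RPL21 and 0.11 (95% interval -0.09 to 0.30; limma adjusted p = 0.58) for RPL23. The RPL4 ratio was 0.29 and 1.01 in BY4741 and 0.83 and 1.06 in the eos1 mutant, which overlap. RPL19, with both copies on chromosome II, had a difference of 0.16 (95% interval -0.08 to 0.41; limma adjusted p = 0.48). The 25 member pairs off chromosome II had a median difference of 0.00, with 13 positive and 12 negative values.

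**Figure D4:**
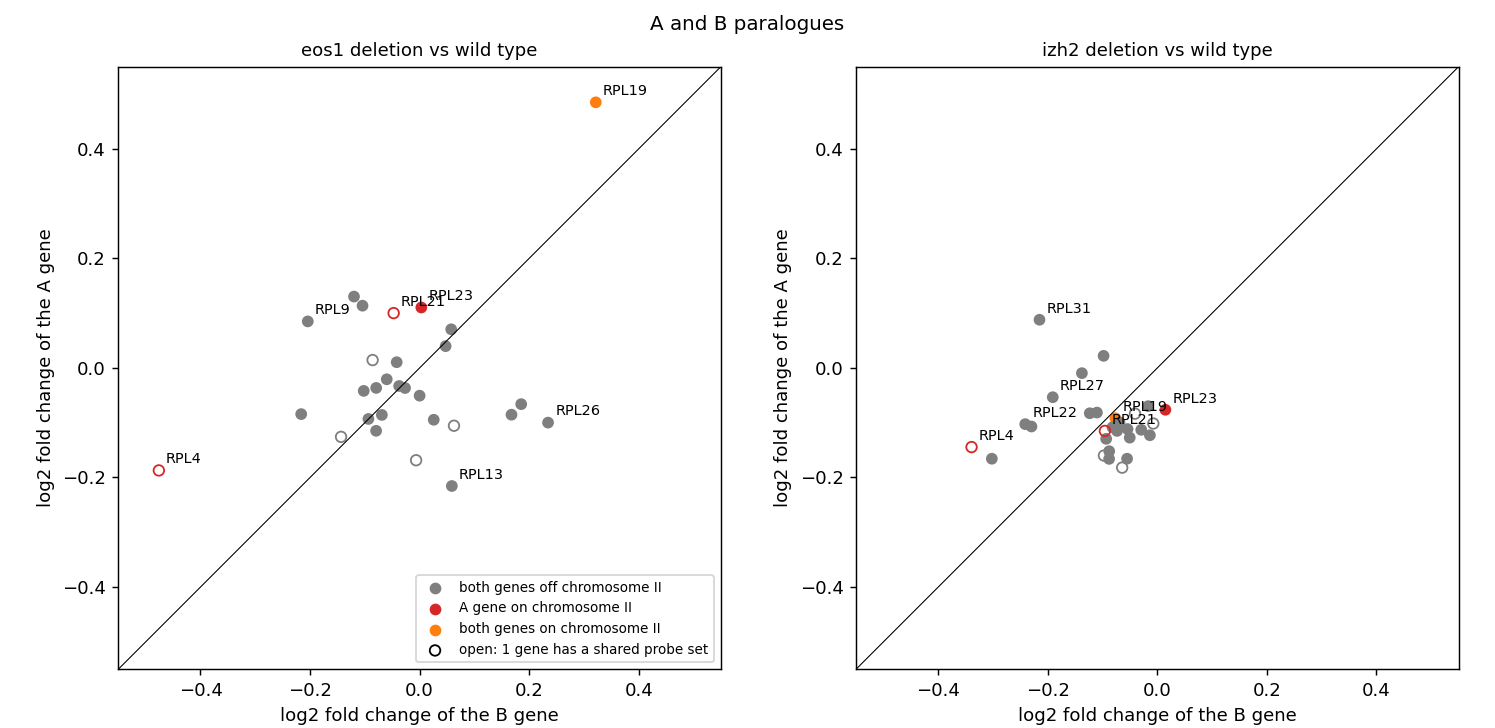
Log2 fold change of the A gene (vertical axis) against that of its B copy (horizontal axis) for the 29 member pairs, in the eos1 mutant (left) and the izh2 mutant (right) against the wild type; points on the diagonal have equal change, and open circles mark pairs with a shared probe set. In the left panel RPL19 lies apart at 0.48 and 0.32, and the 3 pairs with the A gene on chromosome II (red) lie above the diagonal.

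Shared probe sets limit what can be said of single copies. Of the 75 members 12 were read with a probe set that matches transcripts of more than 1 gene, by the array maker's suffix, and 63 with their own. For 6 pairs only 1 copy had a probe set named for it, in each case a shared one, so those 6 pairs could not be separated. For 7 members both kinds of probe set were on the array. RPL21A gave a log2 fold change of 0.11 with its own and 0.10 with its shared probe set in the eos1 mutant. In 2 of the 7 the sign differed between the probe sets: RPL14B, which was named after its values were seen, gave 0.09 with its own and -0.14 with its shared one, and RPL20B gave -0.08 and 0.06. The members with their own probe set had a median of -0.05 and those with a shared one -0.10.

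Loss of IZH2 produced 0 member calls, and only 0.0204% of all tested genes were called. At an unadjusted p of 0.05 the limma count was also 0 of 75, against 2.14% of all tested genes. The median log2 fold change of the members was -0.10, with quartiles of -0.13 and -0.07, and the median of all tested genes was -0.11. Values were negative for 72 of 75 members, while 32 lay below the median of all genes. The izh2 mutant arrays lay below both wild-type arrays for 26 members, against 22.9% of all tested genes, and above both for 0, against 5.2% of all. After centring the members' median was 0.02. The members thus lay near the median of all genes on these arrays.

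The extremes in the izh2 mutant were few. RPL41A, RPL4B, RPL15B and RPL22B had the lowest values, at -0.78, -0.34, -0.30 and -0.24, and 3 of these are the dimmest members. RPL15B, for a protein of the subunit's core, had signals of 883 and 565 in BY4741, 912 and 690 in the eos1 mutant, and 590 and 557 in the izh2 mutant, with the wild type and the izh2 mutant overlapping. RPL31A, RPP2A and RPL23B alone were positive, at 0.09, 0.02 and 0.01. Among the member pairs RPL31 differed most. Its log2 ratio of A to B was 0.69 and 0.47 in BY4741, 0.73 and 0.87 in the eos1 mutant, and 0.81 and 0.96 in the izh2 mutant. Both mutants lay above the wild type, and the izh2 mutant differed from it by 0.30 (95% interval 0.02 to 0.59; limma adjusted p = 0.96). RPL4, RPL22 and RPL27 followed with 0.19, 0.14 and 0.14.

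Between the mutants the members' median log2 fold change was 0.04, against 0.31 for all tested genes, and 71 of 75 lay below the latter. The eos1 mutant arrays lay above both izh2 mutant arrays for 17 members, against 54.6% of all tested genes, and below both for RPL17B alone, against 6.46% of all. RPL17B read 7252 and 6905 in the eos1 mutant and 7651 and 7550 in the izh2 mutant, and its A copy read 9821 and 8374 against 8186 and 7614. The RPL17 ratio of A to B thus differed by 0.30 (95% interval 0.05 to 0.56; limma adjusted p = 0.29). RPL15 differed by -0.39, RPL26 by -0.29 and RPL40, whose genes encode fusions to ubiquitin, by -0.22. This comparison shares its arrays with those against the wild type, which themselves share the wild-type arrays, so the 3 are not independent.

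**Figure D5:**
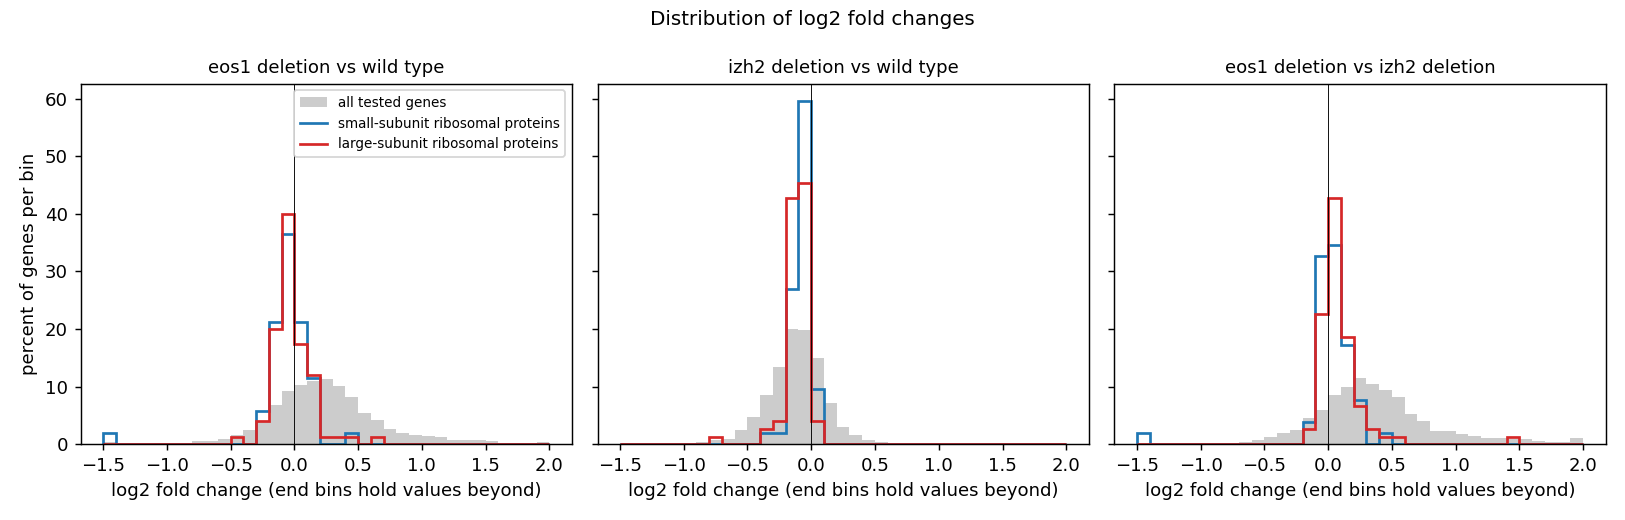
Distribution of log2 fold changes (horizontal axis) as percent of genes per bin (vertical axis) for all tested genes (grey) and the large-subunit ribosomal protein genes, with the small-subunit genes for comparison, in the 3 comparisons. The large-subunit genes gather around -0.05 in the eos1 mutant, where all tested genes have a median of 0.21, and around -0.10 in the izh2 mutant, where all tested genes have -0.11.

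For the partner subunit, the 52 small-subunit ribosomal protein genes had a median log2 fold change of -0.04 in the eos1 mutant and -0.09 in the izh2 mutant, and 51 of 52 lay below the median of all tested genes in the eos1 mutant. Of these, 1 was called: RPS9A fell by 2.04 on the log2 scale (limma adjusted p = 0.0038), from 3198 and 2555 in the wild type to 900 and 538 in the eos1 mutant. Mitochondrial ribosomal protein genes were listed by a symbol of MRPL or MRPS and a number, and other symbols were not counted. Of the 43 listed genes tested, 4 rose in the eos1 mutant (MRPS9, MRPL36, MRPS5 and MRPL37), and all 4 lie on chromosome II. The share called higher was 6.4% over all tested genes and 59.8% over the 346 chromosome II genes that are not large-subunit members. The 6 listed mitochondrial genes on that chromosome gave 4 calls. After centring 3 were called, without MRPL37 (limma adjusted p = 0.061). The log2 fold changes of the 4, as deposited, were 1.27, 1.32, 1.14 and 1.07, and the median of the 43 was 0.29. The 6 listed mitochondrial genes on chromosome II had a median of 1.12, against 0.11 for the 6 large-subunit members there.

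Genes that act on the large subunit were also counted. Of 52 factors for its assembly and export, 0 were called in the eos1 mutant by limma, against 7.11% of all tested genes. At an unadjusted p of 0.05 the count was 6, against 21.8% of all tested genes. Of the 6, 4 were lower and 2 higher, against 119 lower and 953 higher among the 4907 tested genes. The 2 higher ones were the 2 listed factors on chromosome II, at 0.54 and 0.75. The median log2 fold change of the 52 was -0.29, with 46 negative values. That of the 50 off chromosome II was -0.31. The count depended on the scaling: after median centring 5 of 52 were called lower against the wild type, where 2.24% of all tested genes were, and 21 of 52 against the izh2 mutant, where 3.91% were. At an unadjusted p of 0.05 the centred counts were 35 and 41, against 22.1% and 25.9% of all tested genes. Of these, 34 and 41 were lower, against 11.2% and 13.6% of all tested genes. RIX1, TSR2, BRX1 and EBP2, the called factors with the smallest p after median centring, had values of -0.91, -0.83, -0.72 and -0.74 on the centred scale (limma adjusted p between 0.021 and 0.036); TSR2 is known as an escort of a small-subunit protein. Of 7 methyltransferases that modify large-subunit proteins or elongation factors, 1 was called in the eos1 mutant. This was RKM3, on chromosome II, which rose by 1.16 (limma adjusted p = 0.0092), from 246 and 263 to 521 and 621. The share called higher was 6.4% over all tested genes and 59.8% over the chromosome II genes that are not members. Such chromosome II genes had a median of 1.12 in the signal class of RKM3, 8 to 10. The 5 methyltransferases off chromosome II gave 0 calls. Of 19 tested regulators of ribosomal protein genes 0 were called in the eos1 mutant, against 7.11% of all tested genes. At an unadjusted p of 0.05 the count was 5, against 21.8% of all tested genes. The median log2 fold change of the 19 was 0.21, the same as that of all tested genes. CKA2, a catalytic subunit of casein kinase, was called lower in the eos1 mutant after centring (-1.15, limma adjusted p = 0.011). There 2.24% of all tested genes were called lower. Between the mutants as deposited CKA2 was the 1 regulator called, against 0.713% of all tested genes called lower. It fell by 0.91 (limma adjusted p = 0.041), from 1490 and 1308 in the izh2 mutant to 902 and 610 in the eos1 mutant. In the izh2 mutant 0 genes of these lists were called or had an unadjusted p of 0.05 or less, against 0.0204% and 2.14% of all tested genes.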

How the data were processed

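Total RNA was isolated with hot phenol and labelled with biotin, per the labels' protocols. The values deposited by the authors are linear signal intensities, 1 for each of 10928 probe sets per array. GCOS is the software named in the submitters' processing notes, with no version stated, and the series' design text names GeneSpring 7.3.1 for the authors' statistics. The sources used here do not say how the arrays were brought to a common scale. No sequence of a member is printed here.

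Names came from the platform annotation and the R64 gene table, which give 1 gene to 5498 probe sets. For 47 genes with several probe sets the brightest was used. The log2 of the intensity, with a floor of 1, was fitted as deposited. Genes with a mean log2 signal above 6.52, the 95th percentile of the probe sets outside those 5498, were tested, 4907 of 5449. Models were fitted to all 6 arrays with limma 3.58.1 in R 4.3.3 (eBayes with an intensity trend), with 3 residual degrees of freedom and 7.41 prior ones. Two-sided p values were adjusted by the Benjamini-Hochberg method at a threshold of 0.05. Pair ratios were fitted the same way without a trend (2.93 prior degrees of freedom) and adjusted over 53 pairs. Scripts were tested on simulated data. The arrays' number limits precision.

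Members and lists were chosen with earlier results of these data known. Genes were named by rule: called members, members of chromosome II and their paralogues, single-copy and stalk members, the 4 highest and 4 lowest members and the 4 largest pair differences per comparison, and up to 4 called genes of each other list. RPL17A and RPL40B were named as part of a small count, after their values were seen. Alternatives covered scaling, filter, floor, variance model, samples in the fit, replicate block, probe set choice and leaving out each array. Added after seeing the data were a preference for a gene's own probe set and a fit leaving out chromosome II.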

Additional observations from a re-analysis of the deposited data

How the results depend on the processing

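The count of paralogue pairs called was 0 in every alternative and comparison. Members called in the eos1 deletion against the wild type were 0 as reported, where 349 of all tested genes were called. After median centring 1 was called (RPL4B), among 317 genes called in all. With quantile normalization 2 were called (RPL19A and RPL19B), among 311. With the filter at the 99th percentile 1 of 73 members was called (RPL19A), among 95. With the replicate number as a replicate block the count was 1 (RPL19A, limma adjusted p = 0.042), among 426 genes called in all. The labels do not pair the arrays, and deviations of same-numbered arrays correlated across genes at 0.48 for the wild type and eos1 deletion, -0.34 for the wild type and izh2 deletion and 0.09 for the deletions. The block left 3 members called between the deletions and 0 in the izh2 deletion. Between the deletions the 3 calls became 0 under both centrings and without a variance trend. In all, 517, 504 and 602 genes were called in those fits. Without chromosome II genes the count was also 0, among 250 genes called in all. That fit does not hold RPL19A and RPL19B, so it bears on RPL41A alone. RPL19B was also lost without a filter (adjusted p = 0.056), and RPL41A with quantile normalization (adjusted p = 0.11). In the izh2 deletion RPL41A was at -1.35 when the second wild-type array was left out and at -0.21 without the first. In the eos1 deletion RPL41A was at 1.21 without the first wild-type array and at 0.069 without the second. RPL4B there was at -0.77 without the second and at -0.19 without the first. The cause of these changes was not tested.

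The members' median log2 fold change in the eos1 deletion, -0.05, was -0.28 when centred on all tested genes, -0.23 when centred on genes outside chromosome II, and -0.11 to 0.02 when single arrays were left out. In the izh2 deletion, -0.10, it was 0.018 and 0.021 under the same centrings, -0.0051 with quantile normalization and -0.16 to -0.04 when single arrays were left out. The difference between chromosome II and other members, 0.17, was 0.14 to 0.24 when single arrays were left out. Centring turned the sign of many small member values. Against the wild type, the eos1 deletion had 26 positive values of 75 as deposited and 4 after centring. For the izh2 deletion these counts were 3 and 51. Of the members followed singly, 7 turned sign with the scaling. Against the wild type in the izh2 deletion RPL19A gave 0.026, 0.030 and 0.0086, RPL19B 0.042, 0.045 and 0.036, and RPL20B 0.11, 0.11 and 0.074 under the centrings on all genes and on genes outside chromosome II and under quantile normalization. In the eos1 deletion the centrings gave -0.13 and -0.075 for RPL21A, -0.12 and -0.065 for RPL23A, -0.23 and -0.17 for RPL23B, and -0.17 and -0.11 for RPL32.

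Small values also turned sign when single arrays were left out. In the eos1 deletion the range was -0.16 to 0.068 for RPL21B, -0.66 to 0.23 for RPL22B, -0.048 to 0.27 for RPL23A, -0.18 to 0.19 for RPL23B, -0.44 to 0.031 for RPL9B and -0.070 to 0.65 for the RPL4 pair. In the izh2 deletion it was -0.62 to 0.020 for RPL15B, -0.19 to 0.0049 for RPL19A, -0.19 to 0.18 for RPL20B, -0.69 to 0.20 for RPL22B, -0.12 to 0.15 for RPL23B, -0.058 to 0.23 for RPL31A, -0.13 to 0.17 for RPP2A, -0.30 to 0.58 for the RPL22 pair, -0.025 to 0.30 for the RPL27 pair and -0.16 to 0.55 for the RPL4 pair. Between the deletions it was -0.20 to 0.0074 for RPL1B and -0.11 to 0.30 for the RPL4 pair. With 2 arrays per strain, differences of this size were not resolved, and the response of probe sets as bright as those of most members was not tested.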
